A study of Mus musculus with 6 samples.

Results

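Mucins were compared between mouse esophagus and stomach organoids, epithelial cultures grown as 3D structures from isolated tissue. The 9 mucin genes were Muc1, Muc2, Muc4, Muc5ac, Muc5b, Muc6, Muc13, Muc15 and Muc20, and their members were all 11 non-control probes carrying these names among the 55681 distinct probes (34298 gene names) of the arrays. Of these, 4 probes for 4 genes belonged to gel-forming mucins (Muc2, Muc5ac, Muc5b and Muc6) and 7 probes for 5 genes to transmembrane mucins (Muc1, Muc4, Muc13, Muc15 and Muc20). Total RNA was measured on 6 single-color arrays, 3 of esophagus and 3 of stomach organoids at passage 0, and the labels number the mice 1, 2 and 4 in both tissues. The study's methods name wild-type C57BL/6 female mice beside reporter strains, and strain and sex are not given for these samples in the sources used here. The labels call every sample a control, and every culture was harvested on day 8 except stomach organoids of mouse 4, harvested on day 7. In the study's general culture methods, mouse stomach organoids come from corpus glands and grow with WNT3A and R-spondin1 conditioned medium and gastrin. The esophagus medium there lacks these and holds forskolin, though the study also grew esophageal organoids with WNT3A and R-spondin1. If these 6 cultures followed the general methods, tissue and medium cannot be told apart. The esophagus array of mouse 4 was on a second slide, and the other 5 arrays shared 1 slide.

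Mucins are large proteins whose serine- and threonine-rich stretches carry dense O-linked glycans. Gel-forming mucins are packed into granules, secreted and cross-linked into mucus, with MUC5AC known from gastric surface (pit) cells, MUC6 from gastric neck and gland cells, MUC2 from intestinal goblet cells and MUC5B from airway and salivary glands. Transmembrane mucins stay anchored in the apical membrane, where they form part of the glycocalyx and can signal through their cytoplasmic tails. The esophagus is lined by stratified squamous epithelium and the stomach corpus by columnar mucus-secreting epithelium.

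Most tissue markers followed the labels. Of 6 squamous markers, 5 were higher in esophagus, such as the basal keratin Krt5 (4.85 to 5.39 in stomach and 17.07 to 17.08 in esophagus, log2 intensity). The exception was Trp63, a squamous lineage transcription factor with 4 probes that disagreed. Its probe with the highest mean, which stands for it in the list, was higher in stomach (10.57 to 11.66 against 9.90 to 10.06, adjusted p = 0.0249). The other 3 were well above background on no stomach array and at least 55.7-fold to 336-fold higher in esophagus. Through that 1 probe, Trp63 made up most of the summed squamous level in stomach (10.81 to 11.73, against 18.56 to 18.76 in esophagus). Of 6 columnar markers, 5 were higher in stomach, and their sum was 18.17 to 18.29 there and 12.15 to 13.34 in esophagus. Summed pit cell markers were 18.42 to 18.59 in stomach against 6.46 to 6.84 in esophagus, and neck cell markers 17.48 to 17.73 against 7.05 to 7.29. Most of the neck sum came from Tff2 in stomach (17.62, 17.73 and 17.48) and from Cftr in esophagus (6.70, 7.01 and 6.79). Cftr itself differed by -1.80. Of other cell types, 5 intestinal markers found by name summed to 13.44 to 14.09 in stomach and 7.56 to 7.78 in esophagus. In stomach nearly all of that sum came from Vil1, the brush border protein villin (13.34, 13.38 and 13.97). The sum leaves out the goblet cell gene Clca1, listed among mucus partners, which was brighter than Vil1 in stomach (16.30, 15.61 and 15.11). Cdx2 read 8.73, 8.76 and 9.91 in stomach, and Cdx1 was well above background on no array. Of the immune markers, Itgam read 13.24, 13.83 and 12.96 in stomach and 11.18, 10.47 and 10.51 in esophagus (difference -2.62, adjusted p = 0.000662), Cd3e was well above background on all 6 arrays (7.23 to 8.34, adjusted p = 0.299), and Ptprc and Adgre1 were on none. The part of these markers in the mucin differences was not tested. A spot was called well above background by the scanner software for 46.7% to 51.1% of non-control spots in stomach and 45.5% to 47.3% in esophagus. In such bulk samples, fewer cells of a type and less RNA per cell cannot be told apart. The 3 arrays of a tissue came from different animals, and their number limits the precision of every value.

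Each mucin was read through 60-base probes, and the sequences of 4 are shown because the results turn on them: 2 gel-forming mucins that were far higher in stomach, the gel-forming neighbor that was not called, and the transmembrane mucin with the lowest adjusted p. They are written 5′ to 3′ as in the deposited files, and no letters are capitalized because no part is singled out.
Muc5ac: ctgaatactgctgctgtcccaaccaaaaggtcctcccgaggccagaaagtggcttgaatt
Muc6: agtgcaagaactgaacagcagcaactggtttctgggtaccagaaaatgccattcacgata
Muc2: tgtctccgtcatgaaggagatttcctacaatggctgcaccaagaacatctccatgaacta
Muc1: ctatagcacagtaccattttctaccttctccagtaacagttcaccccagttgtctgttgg
In the mm9 build the Muc5ac probe lies at chr7:149004793-149004852 (plus strand), the Muc6 probe at chr7:148819902-148819961 (minus strand), the Muc2 probe at chr7:148940000-148940059 (plus strand) and the Muc1 probe at chr3:89034965-89035024 (plus strand). The longest run of bases shared by any of the 55 pairs of mucin probes, on either strand, was 5 to 9 bases. GC content of the 11 probes was 35% to 55%.

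Gel-forming mucins Muc5ac, Muc5b and Muc6 were higher in stomach organoids, and Muc2 did not pass the test. All values are log2 intensities deposited by the authors, differences are esophagus minus stomach with the limma standard error (SE), and p-values are two-sided and Benjamini-Hochberg adjusted over all probes, with a threshold of 0.05. Muc5ac, the pit cell mucin, read 15.65, 15.03 and 13.26 on the stomach arrays of mice 1, 2 and 4, and 5.17, 4.78 and 5.21 on the esophagus arrays. Every stomach value was far above every esophagus value, and the probe was well above background on no esophagus array. Its difference was -9.59 (SE 0.54, n = 3 per tissue, adjusted p = 1.94e-05), which is at least 773-fold higher in stomach. Such a bound is the mean of the bright tissue over, per array of the dim one, the higher of the probe's own signal and the lowest signal among probes well above background.

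Muc5b, at chr7:149058931-149058990 on the plus strand, read 10.73, 11.52 and 9.97 in stomach and 4.84, 5.15 and 4.68 in esophagus. The tissues did not overlap, and no esophagus array was well above background. The difference was -5.85 (SE 0.36, adjusted p = 3.22e-05), at least 57.7-fold higher in stomach. Muc6, the neck cell mucin, read 7.39, 8.33 and 9.79 in stomach and 4.59, 4.76 and 4.53 in esophagus. Its stomach values were spread most widely relative to its difference among these 3 genes, yet the lowest of them exceeded every esophagus value. The difference was -3.88 (SE 0.52, adjusted p = 0.00224), at least 14.5-fold higher in stomach.

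Muc2, the mucin of intestinal goblet cells, read 5.95, 5.56 and 5.93 in stomach and 5.58, 5.60 and 4.99 in esophagus. The tissues overlapped, and the probe was well above background on all 3 stomach arrays and on 2 of 3 esophagus arrays. The difference was -0.43 (SE 0.21, adjusted p = 0.285), and a p above the threshold does not show that the tissues were alike. With 1 array left out at a time, the limma difference ranged from -0.56 to -0.23 (adjusted p = 0.249 to 0.553). Of genes also known from intestinal goblet cells, Fcgbp was 2.0-fold higher in stomach (adjusted p = 0.0206) and Zg16 at least 4.58-fold (adjusted p = 0.0193). Clca1, a secreted goblet cell protein, read 16.30, 15.61 and 15.11 in stomach and was at least 1530-fold higher there (adjusted p = 5.34e-07), and Itln1, the lectin intelectin 1, was at least 174-fold higher (adjusted p = 8.9e-08). These 4 genes were picked after their values were seen.

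**Figure D1:**
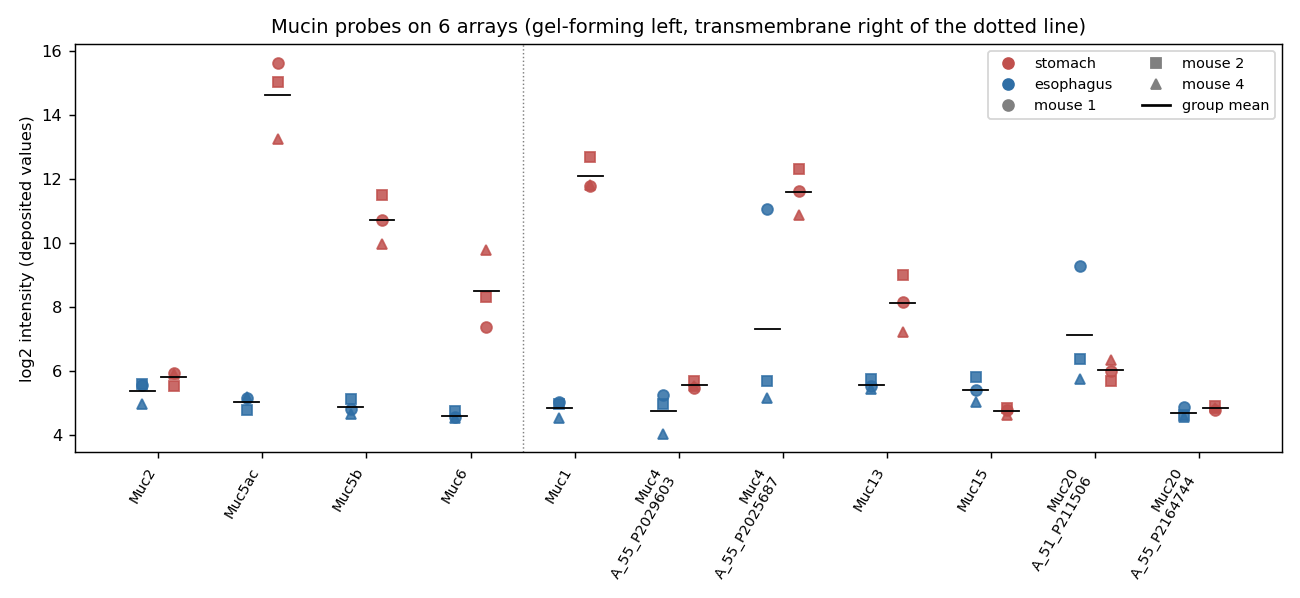
Deposited log2 intensity (y axis) of each of the 11 mucin probes (x axis) on each array, with symbols for mice 1, 2 and 4, colors for tissue and bars for group means (n = 3). Muc5ac, Muc5b, Muc6 and Muc1 lie in 2 separate groups, and the esophagus array of mouse 1 stands apart for Muc4 (11.08) and Muc20 (9.28).

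Transmembrane mucins were more mixed: Muc1 and Muc13 were higher in stomach, and no probe of Muc4, Muc15 or Muc20 passed. Muc1, the widely expressed epithelial membrane mucin, read 11.80, 12.69 and 11.84 in stomach and 5.04, 4.99 and 4.53 in esophagus. The groups were far apart, with no esophagus array well above background. The difference was -7.26 (SE 0.27, adjusted p = 1.99e-06), at least 151-fold higher in stomach. Muc13, a membrane mucin of gastrointestinal epithelium, read 8.16, 9.01 and 7.24 in stomach and 5.53, 5.76 and 5.46 in esophagus through a probe at chr16:33819909-33819968 (plus strand). Its groups did not overlap, and 2 of 3 esophagus arrays were well above background. The difference was -2.55 (SE 0.40, adjusted p = 0.00456), or 5.87-fold higher in stomach.

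Muc4, a membrane mucin known as a partner of ERBB2, was read by 2 probes that differed in what they showed. The brighter one, at chr16:32782278-32782337 (plus strand), read 11.65, 12.32 and 10.89 in stomach and 11.08, 5.71 and 5.17 in esophagus. The esophagus array of mouse 1 lay inside the stomach range and exceeded the next esophagus array 41.3-fold. The difference was -4.30 (SE 1.40, adjusted p = 0.0988), and without that array it was -6.18 (SE 0.41, adjusted p = 0.000103). Without the esophagus array of mouse 2 or of mouse 4 it was -3.50 (adjusted p = 0.261) or -3.23 (adjusted p = 0.218). The other probe, at chr16:32774896-32774955 (plus strand), read 5.48, 5.71 and 5.53 in stomach and 5.25, 4.97 and 4.05 in esophagus. All stomach values were higher, though no esophagus array was well above background, and the difference was -0.82 (SE 0.30, adjusted p = 0.136). With 1 array left out at a time, this probe's limma difference ranged from -1.07 to -0.46 (adjusted p = 0.0555 to 0.343).

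Muc20, a membrane mucin known to bind the receptor MET, showed the same array apart from the others. Its brighter probe, at chr16:32786143-32786202 (minus strand), read 6.0, 5.71 and 6.37 in stomach and 9.28, 6.40 and 5.75 in esophagus. The esophagus array of mouse 1 exceeded the next one 7.36-fold, and the other esophagus values overlapped with stomach. The difference was 1.12 (SE 0.81, adjusted p = 0.482), and 0.05 (adjusted p = 0.95) without that array, against 1.81 (adjusted p = 0.2) without the esophagus array of mouse 4. The other Muc20 probe, at chr16:32777512-32777571 (minus strand), was well above background on no array, with values of 4.59 to 4.92. Muc4 and Muc20 are neighbors on opposite strands, and their annotated spans overlap in RefSeq. On either side, no probe of Tnk2 or Rubcn was called, with differences of -0.44 to 0.61.

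On the esophagus array of mouse 1, Muc5ac read 5.17, Muc5b 4.84 and Muc1 5.04. These probes were well above background on no esophagus array, so a small rise could not have been seen. Columnar markers, however, summed highest on it (13.34, against 12.15 and 12.88 for mice 2 and 4), with the keratin Krt19 at 12.04, 10.14 and 10.78, while Krt8 read 5.50, 5.83 and 5.21. Pit cell markers summed to 6.84, 6.63 and 6.46, and neck cell markers to 7.05, 7.29 and 7.12. Of 55641 probes measured on all 6 arrays, 141 were at least 4-fold higher on it than on both other esophagus arrays and 32 at least 4-fold lower. These counts were 127 and 2 for the esophagus array of mouse 2, and 11 and 220 for that of mouse 4. The part of that array's other features in the Muc4 and Muc20 values was not tested.

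Muc15, a membrane mucin first described in milk, was the only member with all esophagus values above all stomach values. Its probe at chr2:110577682-110577741 (plus strand) read 4.78, 4.85 and 4.63 in stomach and 5.42, 5.84 and 5.03 in esophagus. It was well above background on 1 esophagus array and on no stomach array. The difference was 0.68 (SE 0.22, adjusted p = 0.0968), and 0.88 (SE 0.19, adjusted p = 0.0297) when the esophagus array of mouse 4 was left out, or equally with the slide as a block. Without the esophagus array of mouse 2 it was 0.47 (adjusted p = 0.226).

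**Figure D2:**
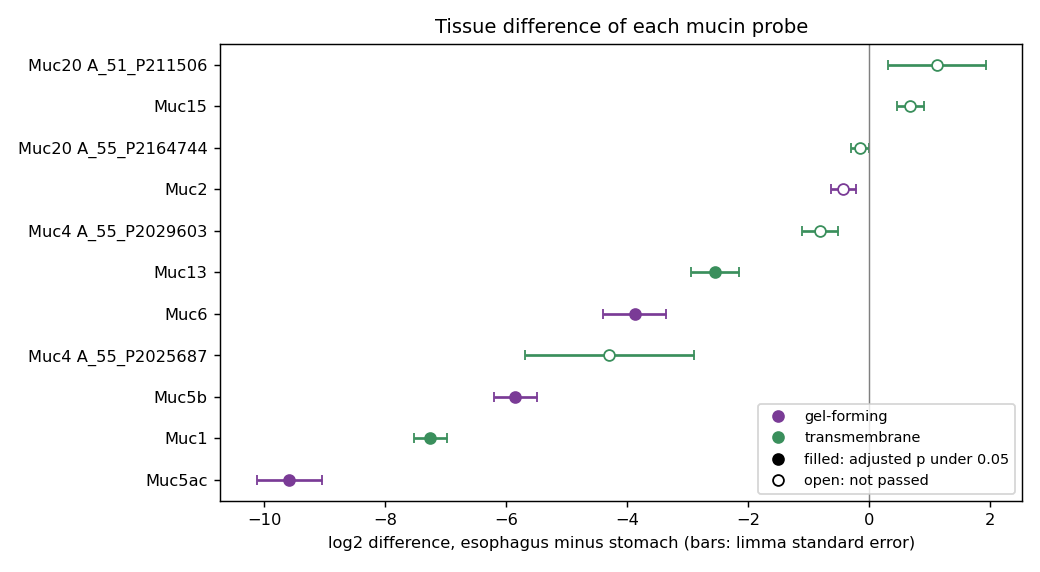
Log2 difference, esophagus minus stomach (x axis), with its limma standard error for each mucin probe (y axis), colored by class and filled where the adjusted p was under 0.05. The 5 filled probes all lie left of 0, from Muc5ac at -9.59 to Muc13 at -2.55, and the brighter Muc4 probe has the widest bar.

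In all, 5 of 11 mucin probes passed as higher in stomach, 3 gel-forming and 2 transmembrane, and 0 as higher in esophagus. Among all probes, 6.22% passed as higher in stomach and 5.94% as higher in esophagus, and by the brightest probe of each gene the shares were 7.7% and 7.15%. By limma without adjustment, at p under 0.05 and 1.5-fold, 7 mucin probes were higher in stomach and 1 in esophagus, against 8.85% and 9.28% of all probes. All stomach values exceeded all esophagus values for 6 mucin probes and the reverse held for 1, against 13.4% and 15.2% of all probes measured on 6 arrays. The median difference over the brightest probe of each gene was -4.86 for the 4 gel-forming mucins (range -9.59 to -0.43) and -2.55 for the 5 transmembrane mucins (range -7.26 to 1.12), against 0.03 over all genes. With dim values set at their bound, the medians were -4.85 and -2.55. By mouse, the gel-forming median was -4.35, -4.97 and -5.27, and the transmembrane median -0.58, -3.25 and -1.78 for mice 1, 2 and 4. The 2 classes overlapped in their members' differences, and the difference between classes was not tested. Of the 11 probes, 9 were well above background on all stomach arrays, 1 was on all 6 arrays, 6 were on no esophagus array and 1 was on no array.

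Within the stomach arrays, the mucins did not follow one order. The stomach array of mouse 4 had the lowest Muc5ac, Muc5b, Muc4 (brighter probe) and Muc13 values and the highest Muc6 value. Muc5ac ranged over 2.40 log2 units and Muc6 also over 2.40, in opposite order between mice 1 and 4. Without that array the Muc5ac difference was -10.29 (adjusted p = 1.88e-06) and the Muc6 difference -3.24 (adjusted p = 0.000558). The array also stood apart over all probes, with 51 at least 4-fold above and 119 at least 4-fold below both other stomach arrays, against 10 and 0 for mouse 1 and 1 and 0 for mouse 2, and the part of this in the mucin values was not tested. A4gnt, the enzyme that caps gland mucin glycans with alpha1,4-linked N-acetylglucosamine, was highest on the mouse 4 array (5.05, 5.81 and 6.81). Pgc, the pepsinogen C gene of chief and neck cells, was likewise highest there (13.15, 13.94 and 14.66), and Gif, the gastric intrinsic factor gene, was lowest (13.68, 14.11 and 11.31); both were picked after their values were seen. The pit cell markers Gkn1 (9.77, 8.94 and 8.79) and Gkn2 (17.23, 16.93 and 16.75) were lowest on the mouse 4 array, as was Muc5ac. The neck cell markers did not follow Muc6, with Tff2 at 17.62, 17.73 and 17.48, near the top of the scale, and Cftr at 8.65, 8.62 and 8.64, whereas the enteroendocrine markers Chga (5.05, 5.19 and 6.69) and Chgb (4.97, 4.87 and 5.85) were also highest on the mouse 4 array. Also highest there were the squamous markers Krt13 (5.38, 5.12 and 6.35) and Krt15 (5.30, 5.05 and 6.22) and Cdx2 (8.73, 8.76 and 9.91). The parietal marker Atp4a was highest there as well (5.76, 6.01 and 6.42), whereas Trp63 was lowest through its brightest probe (11.39, 11.66 and 10.57). Chga, Chgb and Krt15 were each well above background on only 1 of 3 stomach arrays and Krt13 on 2, so their low readings were near background. All the marker genes of this paragraph too were named after their values were seen. The stomach culture of mouse 4 was harvested on day 7, so day and animal cannot be told apart.

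**Figure D3:**
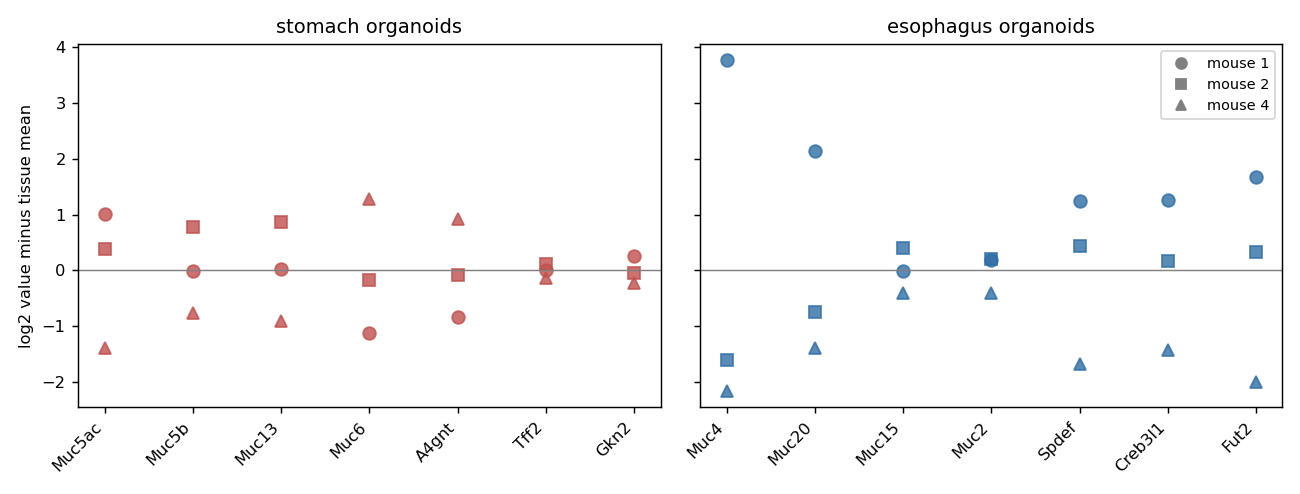
Log2 value minus the mean of its tissue (y axis) for genes (x axis) on the 3 stomach arrays (left) and the 3 esophagus arrays (right), with symbols for mice. On the left, mouse 4 is lowest for Muc5ac, Muc5b and Muc13 and highest for Muc6 and A4gnt, and on the right mouse 1 is highest for Muc4, Muc20, Spdef, Creb3l1 and Fut2.

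The gel-forming mucins stand side by side on chromosome 7. Counted from the Muc6 probe, the Muc2 probe lies at 120.1 kb, Muc5ac at 184.9 kb and Muc5b at 239.0 kb in mm9, with 1 other probe between them, which was well above background on no array. Muc2, not called, thus lies between 2 called neighbors. Of the flanking genes, Ap2a2 (at -1.6 kb) differed by -0.05 (adjusted p = 0.905), and the 3 Tollip probes, past Muc5b, differed by 0.57, 1.22 and -0.18, of which 1.22 passed (adjusted p = 0.0124) as higher in esophagus. Of the 9 probes within 200 kb past Muc5b, that one was called. Over all probes, 6.22% were called higher in stomach and 5.94% higher in esophagus. Of the 14 probes within 200 kb on the Muc6 side, 5 were called, all higher in stomach, and 9 were not. Pnpla2, a triglyceride lipase gene (-1.52, adjusted p = 0.000689), and a probe of Polr2l, an RNA polymerase subunit gene (-5.94, adjusted p = 8.49e-06), were among them, whereas the second Polr2l probe was not called (0.35, adjusted p = 0.525). The others were 2 probes of Cracr2b (-3.01 and -0.95, adjusted p = 3.59e-05 and 0.0263) and 1 of Tspan4 (-1.20, adjusted p = 0.0312). These flanking genes were named after their values were seen.

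**Figure D4:**
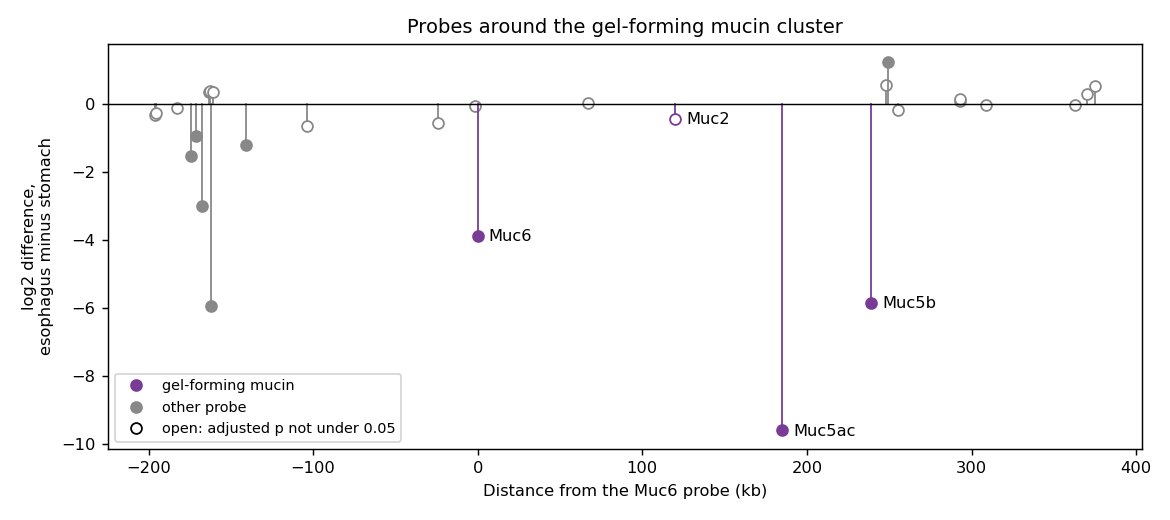
Log2 difference, esophagus minus stomach (y axis), of probes by distance in kb from the Muc6 probe (x axis), filled where the adjusted p was under 0.05. Muc6, Muc5ac and Muc5b reach -3.88, -9.59 and -5.85, and Muc2 between them lies at -0.43.

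The 250 bases before the start sites of Muc6, Muc2 and Muc1 are shown to set the start of a called, an uncalled and a transmembrane mucin side by side. The RefSeq promoter table (GRCm38.p6) held 7 windows for 6 of the 9 genes, each 250 bases before to 50 after a start site, and Muc5ac, Muc5b and Muc15 are named only. Letters searched on both strands were TATAAA (the core promoter box, in 13.6% of 32851 promoters), AGATAA (known from GATA factors, 11.2%), CAAAGTCCA (an HNF4 motif, 0.475%) and, for forkhead factors, TGTTTNC (20.5%). The stricter form TGTTTAC (3.65%), whose matches are all matches of TGTTTNC too, was added after the matches of TGTTTNC had been seen. Capitals mark matches, and the sequences run 5′ to 3′ toward the gene.
Muc6: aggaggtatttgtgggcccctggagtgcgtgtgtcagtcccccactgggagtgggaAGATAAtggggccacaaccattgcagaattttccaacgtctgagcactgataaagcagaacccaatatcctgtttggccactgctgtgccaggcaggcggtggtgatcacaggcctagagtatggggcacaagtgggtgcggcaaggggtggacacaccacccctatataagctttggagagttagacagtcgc
Muc2: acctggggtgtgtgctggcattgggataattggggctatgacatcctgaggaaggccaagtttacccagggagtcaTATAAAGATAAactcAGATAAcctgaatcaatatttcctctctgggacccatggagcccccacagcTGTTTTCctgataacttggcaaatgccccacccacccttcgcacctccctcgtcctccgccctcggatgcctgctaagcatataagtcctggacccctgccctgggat
Muc1: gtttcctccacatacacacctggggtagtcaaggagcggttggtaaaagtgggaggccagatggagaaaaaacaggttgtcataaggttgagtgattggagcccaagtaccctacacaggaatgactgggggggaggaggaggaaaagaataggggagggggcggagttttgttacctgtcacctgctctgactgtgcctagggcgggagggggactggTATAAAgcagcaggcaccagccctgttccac
These stretches are chr7:141655394-141655643, minus strand, for Muc6, chr7:141690090-141690339, plus strand, for Muc2 and chr3:89228806-89229055, plus strand, for Muc1. Muc2 held TATAAA at position -174 (counted from the start site), AGATAA at -169 and -159, the first of which overlaps the TATAAA by 1 base, and TGTTTNC at -108. Muc6 held AGATAA at -194, and Muc1 held TATAAA at -31 and, after its start, TGTTTNC at 29. Muc4 held TATAAA at -36 and AGATAA at 8 and 32, the 2 Muc13 windows held TGTTTNC at -166 and CAAAGTCCA at -186, and Muc20 held the stricter TGTTTAC at -248. A match describes the letters and is not a binding site. Only exact letters were searched, so a window without TATAAA near its start may still hold a variant of the box. The letters tatataag in Muc6 and atataag in Muc2, close to the start sites, are unmarked for that reason.

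Genes that assemble and glycosylate mucins or join them in mucus were mostly higher in stomach: 27 of 36 on the array, with 1 higher in esophagus and 8 not passed, against 7.7% and 7.15% of all genes. Some of these genes also served as tissue markers above, and the lists were chosen with earlier results of these data known. With membrane mucin partners and other mucin genes added, 32 of 51 were higher in stomach and 2 in esophagus, and 17 did not pass. All 8 folding and secretory factors passed as higher in stomach (median difference -3.93). Agr2, a disulfide isomerase of mucus-secreting cells, read 14.67, 15.19 and 15.29 in stomach and 4.94, 5.61 and 5.78 in esophagus, a difference of -9.60 (SE 0.27, adjusted p = 4.63e-07). Foxa3, a forkhead factor, was at least 63.4-fold higher in stomach and Ern2, an endoplasmic reticulum stress sensor of mucous epithelia, at least 17.8-fold. Creb3l1, a secretory pathway transcription factor, differed by -5.02 and, with values of 8.43, 7.33 and 5.74 in esophagus, was highest there on the mouse 1 array, as were Muc4 and Muc20. Spdef, a goblet cell transcription factor picked after its values were seen, showed the same order in esophagus (8.21, 7.41 and 5.30) and differed by -3.71 (adjusted p = 0.00798).

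Of 18 O-glycan enzymes, 9 were higher in stomach, 1 in esophagus and 8 did not pass (median -1.35). The GalNAc transferases Galnt6 (-8.71, adjusted p = 2.58e-06) and Galnt4 (-4.04, adjusted p = 1.92e-05) start O-glycans, Gcnt3 (-7.99, adjusted p = 1.45e-06) branches them, and the fucosyltransferase Fut2 (-4.42, adjusted p = 0.00963) caps them. Fut2 in esophagus again read highest on the mouse 1 array (9.12, 7.78 and 5.46). A4gnt differed by -1.0 (SE 0.39, adjusted p = 0.168) and did not pass. Galnt10, the enzyme that passed as higher in esophagus and was named after its value was seen, differed by 1.38 (adjusted p = 0.0398).

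All 10 mucus partners on the array were higher in stomach (median -9.02, and -9.01 with dim values at their bound). Tff1, Gkn1, Gkn2 and Tff2 were also among the pit and neck cell markers above, and Fcgbp and Zg16 among the intestinal ones. For these genes the count repeats the marker result. The trefoil factor Tff2 was at least 7140-fold higher, the gastrokine Gkn2 at least 4760-fold and the scavenger receptor protein Dmbt1 at least 3190-fold. Tff1 differed by -12.34 (adjusted p = 3.23e-08). Its stomach value of 17.88 was the same on all 3 arrays, the top of the quantile scale, so a higher stomach value could not have been seen. Of 7 membrane mucin partners, 4 were higher in stomach, 1 in esophagus and 2 did not pass (median -0.53). The receptors Erbb3 (-1.28, adjusted p = 0.00103) and Erbb2 (-1.20, adjusted p = 0.00439) and the membrane-cytoskeleton linker Ezr (-1.13, adjusted p = 0.0114) were higher in stomach, and Egfr was higher in esophagus (1.11, adjusted p = 0.0077). Among 8 other mucin or mucin-like genes, Podxl, a sialomucin, was at least 5.5-fold higher in stomach (adjusted p = 0.000299), and the other 7 did not pass (median of the list -0.17).

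**Figure D5:**
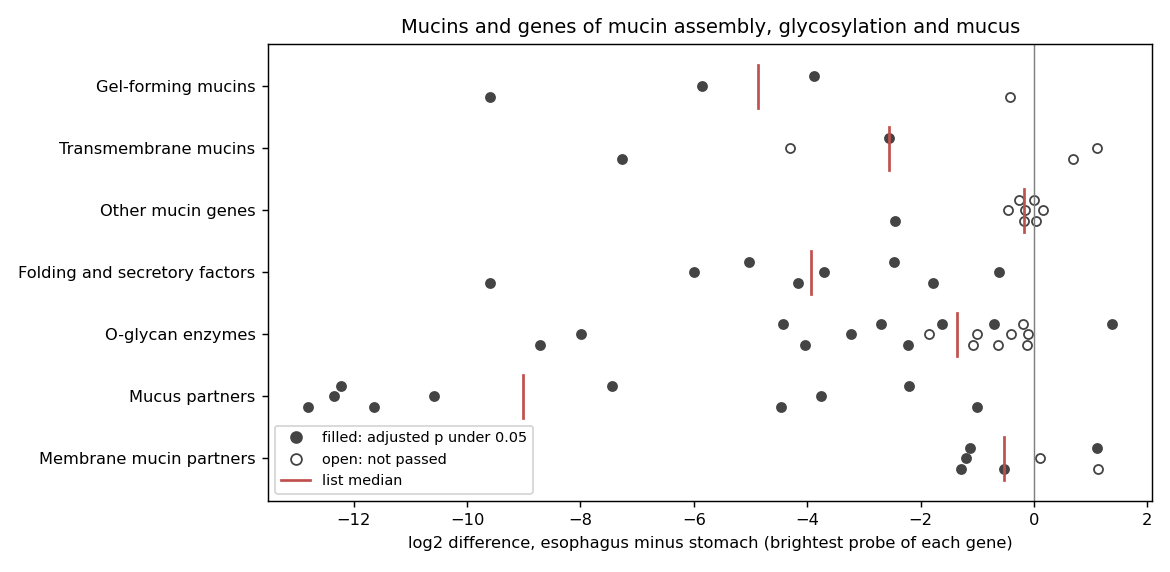
Log2 difference, esophagus minus stomach (x axis), of the brightest probe of each gene in the mucin classes and mucus-related lists (y axis), with filled points for an adjusted p under 0.05 and a red line at each list's median. Mucus partners have a median of -9.02, and folding and secretory factors one of -3.93.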

How the data were processed

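Epithelial organoid RNA was labeled in a single color and hybridized to Agilent mouse arrays. The authors scanned them with Agilent Feature Extraction (version 11.5.1.1, from the file headers), and the deposited scanner files hold each spot's raw and background intensity. The deposited log2 values were background corrected and quantile normalized by the authors. Normexp with an offset of 15 on median intensities plus quantile normalization matched them to a median absolute difference of 0.00433, and 2029 empty cells were the 2029 outlier-marked spots.

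In R 4.3.3 with limma 3.58.1, log2 values of the 59305 non-control spots were averaged per probe, and lmFit and eBayes compared 3 esophagus with 3 stomach arrays with no blocking term, and p-values were adjusted over 55681 probes by the Benjamini-Hochberg method. No probe was saturated. Where a gene had several probes, the brightest on average stood for it. Probe positions are in mm9, as deposited. The labels give the same mouse numbers in both tissues, taken here to mark the animal; deviations from tissue means correlated with r = 0.025, 0.012 and -0.008 in the same mouse and -0.073 to 0.04 between mice.

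Named genes were the members and, per list, up to 4 passing genes with the largest difference that were well above background in a whole tissue, plus Agr2, A4gnt, Tff1 and Tff2; others are marked where named, except markers from the cell type lists, which were chosen for the text after their values were seen. One marker gene is not reported here. The members, lists and motifs were chosen with earlier results of these data known. Alternatives were other background corrections (normexp offsets 16 and 50 on mean intensities) and scaling (75th percentile), a dim-probe filter, eBayes with trend and robust variances, the mouse or slide as a block, averaged probes and each array left out. The fit was tested on simulated data.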

Additional observations from a re-analysis of the deposited data

How the results depend on the processing

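Muc5ac, Muc5b, Muc6, Muc1 and Muc13 passed as higher in stomach under all 13 alternatives run on single probes. Their differences ranged from -12.22 to -8.55 for Muc5ac, -8.43 to -4.70 for Muc5b, -6.52 to -2.78 for Muc6, -10.10 to -6.13 for Muc1 and -3.50 to -1.94 for Muc13. The count of mucin probes higher in esophagus went from 0 to 1 (Muc15) with the slide as a block, without the esophagus array of mouse 4 and at an unadjusted p with 1.5-fold, and it was 0 to 1 over the arrays left out. The gel-forming median was -3.74 with an offset of 50 and -7.48 under 75th percentile scaling, which also moved the median of all probes from 0.02 to 0.19. The transmembrane median was -1.94 and -3.50 under these settings, and -3.43 with the dim-probe filter, which left out Muc15. Under 75th percentile scaling the Muc20 probe below background on every array turned to 0.22 (adjusted p = 0.777). With the mouse as a replicate block, 5 mucin probes were higher in stomach and 32 pathway genes were called, against 34 without it, and no mucin call changed. The slide could be separated only through 1 array, the esophagus array of mouse 4. The slide block and leaving out that array were therefore the same fit, so the alternatives counted here are not all distinct. Signal over background limits what the esophagus values can show, since 6 of 11 probes were well above background on no esophagus array.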
